A study of Mus musculus with 6 samples.

Results

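The 10 genes described here carry dietary iron across the duodenal epithelium, store it and regulate its uptake. They were chosen by symbol for these roles and not by their values, though with earlier results of these data known. All 10 were found among the 22611 genes of the expression table. RNA was sequenced from duodenal epithelium released with EDTA, the first part of the small intestine, of 3 WT and 3 *Esrra*-/- mice (labelled ESRRAKO), littermates that had been fed a high-fat diet, with 1 library per mouse. The *Esrra*-/- mice carry a germline deletion that is present in all tissues, so the epithelium is not the only tissue without ESRRA, an orphan nuclear receptor. The line was bred with a *Villin-Cre*ERT2 transgene, which drives an inducible Cre in gut epithelium, and the labels do not say which mice carried it. Mice of both sexes were used, and the labels give neither sex nor age.

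Iron reaches the enterocyte from the gut lumen after the ferrireductase CYBRD1 (duodenal cytochrome b) has reduced it and the transporter DMT1, encoded by *Slc11a2*, has carried it across the apical membrane. Inside the cell it is stored in ferritin, a shell of heavy (FTH1) and light (FTL1) chains, or leaves through ferroportin (SLC40A1) on the basolateral side, where hephaestin (HEPH) oxidizes it for loading onto transferrin. Cells take up transferrin-bound iron through the transferrin receptor TFRC, which in the gut is most abundant in crypt cells, and heme oxygenase 1 (HMOX1) frees iron from heme. Iron regulatory proteins, of which *Ireb2* encodes IRP2, bind hairpins called iron-responsive elements when iron is scarce, which blocks translation of messages with the hairpin in the 5′ UTR and stabilizes messages with it in the 3′ UTR. HIF-2α, encoded by *Epas1*, is the transcription factor that raises apical uptake and export genes in iron deficiency.

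The hairpins are shown because they are the sites through which iron regulatory proteins act on several of the members. The annotated mouse transcripts (GENCODE M1 on mm9) were searched on the sense strand for the loop CAGTGN, with the last base not G, a C bulge, 5 base pairs in the upper stem and at most 1 unpaired base in the 3′ arm. Of the 10 members 5 held 8 such elements, all outside the coding sequence, against 575 of all 22611 annotated genes (2.54%) with the pattern anywhere, 59 (0.261%) with it in the 5′ UTR and 234 (1.03%) with it in the 3′ UTR. The 6 loop bases are in capitals, each sequence reads 5′ to 3′ on the strand of the message, and each was identical to the genome at the place given.
*Fth1*, 5′ UTR, chr19:10057224-10057248, plus strand: cctgcttcaaCAGTGCttgaacgga
*Ftl1*, 5′ UTR, chr7:52715151-52715175, minus strand: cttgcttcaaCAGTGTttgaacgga
*Slc40a1*, 5′ UTR, chr1:45982312-45982336, minus strand: acttcagctaCAGTGTtagctaagt
*Slc11a2*, 3′ UTR, chr15:100225585-100225610, minus strand: ccatcagagcCAGTGTgtttctatgg
*Tfrc*, 3′ UTR, chr16:32631307-32631331, plus strand: ttatcggaagCAGTGCcttccataa
*Tfrc*, 3′ UTR, chr16:32631686-32631710, plus strand: ttatcgggagCAGTGTcttccataa
*Tfrc*, 3′ UTR, chr16:32631751-32631775, plus strand: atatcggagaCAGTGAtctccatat
*Tfrc*, 3′ UTR, chr16:32631798-32631822, plus strand: ttatcgggaaCAGTGTttcccataa
The *Slc11a2* element lies in some of the annotated transcripts of the gene and not in the others. The pattern was not found in the annotated transcripts of *Cybrd1*, *Heph*, *Hmox1*, *Ireb2* or *Epas1*, which says only that these letters are not there. *Epas1* is itself known as a message with an iron-responsive element in its 5′ UTR, so the pattern does not find every such element. The values below are per gene, so forms with and without the hairpin are summed, for *Slc11a2* and for any other member that has both. RNA levels do not show how much ferritin was translated.

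Expression is given in FPKM, fragment counts scaled to transcript length and to library size, as the authors deposited it. The genotypes were set against each other with limma, which fits a linear model per gene and borrows information on the spread from all genes, using log2(FPKM + 0.1) of the 10596 genes whose mean exceeded 1 FPKM. To be called, a gene needed an unadjusted p under 0.05 together with a log2 ratio of *Esrra*-/- to WT larger than 0.58 in either direction, and adjusted p are those of Benjamini and Hochberg over all genes tested. The fold changes understate those of genes with low values. The study's methods name a nominal sequencing depth, but the depth of each library is unknown from FPKM, and the error of each value is taken from the spread between mice. *Esrra* itself was at 49.4, 73.5 and 104 FPKM in the WT libraries and at 10.4, 9.42 and 8.72 FPKM in those of *Esrra*-/-, which put its log2 fold change at −2.92 (SE, the standard error, 0.26, adjusted p = 0.0215 by limma).

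Markers of the epithelium were abundant in all libraries, with lymphocyte transcripts beside them. The sum of 12 villus enterocyte markers was 41056 to 65962 FPKM in WT and 51057 to 69969 FPKM in *Esrra*-/-, with 0 of 12 called and 0 of 12 with a negative log2 fold change. The sum of 10 crypt markers was 232 to 362 FPKM in WT and 119 to 270.2 FPKM in *Esrra*-/-, with 2 called lower, and that of the 8 Paneth cell markers present was 12338 to 25815 against 2479 to 10949 FPKM, without overlap and with 6 called lower. All 10 crypt and all 8 Paneth cell markers had a negative log2 fold change. The sums of goblet, enteroendocrine, tuft, macrophage, lymphocyte and erythroid markers overlapped between genotypes, as did those of proximal and distal small intestinal genes, with 1 goblet marker called lower and 1 erythroid marker called higher. The 8 lymphocyte markers summed to 112 to 202 FPKM in WT and 94.3 to 238 FPKM in *Esrra*-/-, led by *Gzma* at a mean of 98.2 FPKM. Mesenchymal, pancreatic acinar and Brunner gland markers summed to at most 5.66, 3.62 and 3.89 FPKM in any library.

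None of the iron absorption genes was called in either direction in *Esrra*-/- duodenum. The filter on low values was passed by 8 of the 10 members, and 0 of these 8 were called by limma, against 4.63% of all genes tested (3.28% lower and 1.35% higher). At an unadjusted p under 0.05 there were also 0 of 8 members, against 10.8% of all genes tested, and their adjusted p ran from 0.48 to 0.855, while 0.0378% of all genes tested had an adjusted p under 0.05. The genotypes overlapped for all 10 members, while they did not overlap for 17.6% of the genes tested. The log2 fold change was negative for 4 members and positive for the other 4, with a median of −0.09 beside 0.03 for all genes tested. With *Ftl1* replaced by its sum with a near-identical copy, as described below for ferritin, 5 were negative and 3 positive, with a median of −0.19. With 8 genes, a count of 0 lies near the background share.

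**Figure D1:**
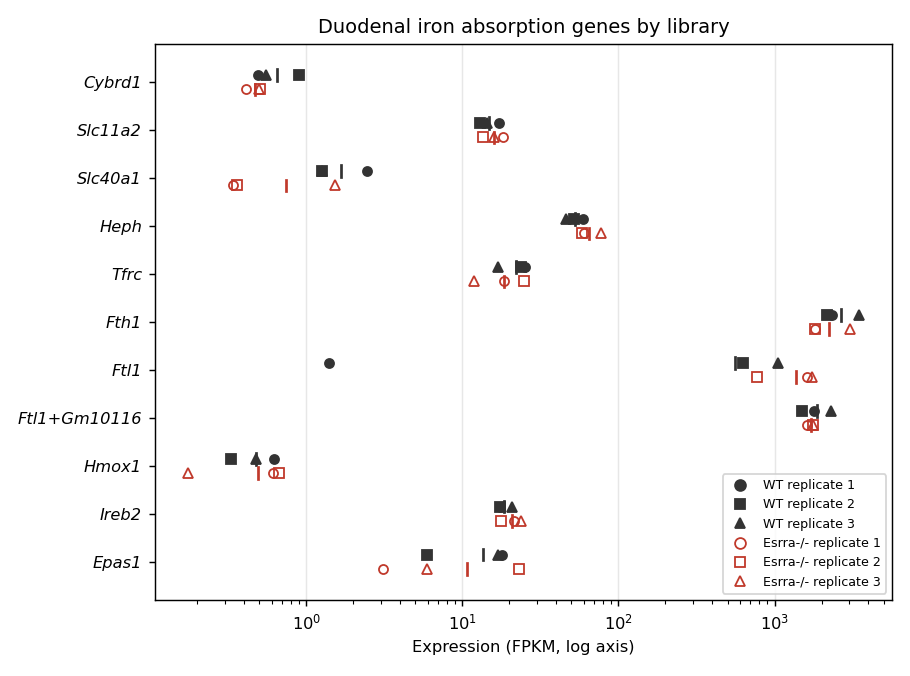
Expression of the 10 iron absorption genes in FPKM on a log axis, with 1 point per library and a vertical bar at the mean of each genotype (n = 3 mice). The genotypes overlap for each gene, *Ftl1* in WT replicate 1 stands at 1.39 FPKM apart from its other values, and the sum of *Ftl1* and *Gm10116* does not.

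The levels of the members spanned more than 3 orders of magnitude. *Fth1*, at a mean of 2440.4 FPKM over the 6 libraries, lay above 99.8% of all genes in the table, and *Heph*, at 58.8 FPKM, above 93.6%. *Tfrc*, *Ireb2*, *Slc11a2* and *Epas1* followed with means of 20.2, 19.7, 15.3 and 12.1 FPKM, and the values of each of these neighbours in the order overlapped. *Slc40a1*, *Cybrd1* and *Hmox1* were the lowest, at means of 1.20, 0.558 and 0.481 FPKM, also with overlapping values.

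The genes of apical uptake differed in level far more than they did between genotypes. *Slc11a2* (chr15:100218329-100255503 of mm9, minus strand) was at 17.2, 12.9 and 14.3 FPKM in WT replicates 1 to 3 and at 18.3, 13.5 and 15.9 FPKM in *Esrra*-/- replicates 1 to 3. Its lowest and highest libraries differed by 1.42 times, and the libraries of the genotypes alternated in order. Between genotypes the log2 fold change was 0.10 (SE 0.16, 95% interval −0.29 to 0.49, adjusted p = 0.855 by limma), an interval of 0.82 to 1.40 times the WT level.

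*Cybrd1* (chr2:70955980-70980983, plus strand), the apical reductase, was at 0.488, 0.899 and 0.551 FPKM in WT and at 0.411, 0.506 and 0.494 FPKM in *Esrra*-/-. It was under 1 FPKM in every library and so was not among the genes tested. The highest value was that of WT replicate 2, and the *Esrra*-/- values lay between 0.411 and 0.506 FPKM, overlapping the lower values of WT (p = 0.3, exact two-sided permutation test, where 3 mice against 3 allow no p below 0.1). Fitted without the filter, its log2 fold change was −0.35 (95% interval −1.06 to 0.36, limma adjusted p = 0.79).

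Of the export genes, *Slc40a1* (chr1:45964915-45982439, minus strand) had the most negative log2 fold change of the members. Ferroportin transcripts were at 2.46, 1.26 and 1.26 FPKM in WT and at 0.340, 0.361 and 1.52 FPKM in *Esrra*-/-. *Esrra*-/- replicates 1 and 2 lay below all WT libraries and *Esrra*-/- replicate 3 lay above WT replicates 2 and 3, so the genotypes overlapped. This gave a log2 fold change of −1.28 (SE 0.58, 95% interval −2.64 to 0.07, adjusted p = 0.48 by limma). Without *Esrra*-/- replicate 3 it was −1.90 with an unadjusted limma p of 0.00428, past the call thresholds, and without any other single library it stayed short of them. With a pseudocount of 1 FPKM in place of 0.1 it was −0.65. The gene passed the filter at a mean of 1.20 FPKM through its WT values, and its within-group SD of 0.84 on the log2 scale was larger than that of 96.5% of the genes tested.

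Macrophages also express ferroportin. Of 11 macrophage markers 5 were at a mean of 1 FPKM or less, and *Emr1*, which encodes F4/80, was at 0.0211 to 0.204 FPKM. The sum of the list was 31.5 to 45.6 FPKM in WT and 33.0 to 62.4 FPKM in *Esrra*-/-, most of it *Mertk*, which ran from 19.4 to 51.6 FPKM. It was lowest in WT replicate 2, and *Esrra*-/- replicates 1 and 2, the lowest in *Slc40a1*, had 42.7 and 33.0 FPKM. The part of other cells in the *Slc40a1* values was not tested. *Pdx1*, a transcription factor of the proximal duodenum, was at 1.17, 0.366 and 0.866 FPKM in WT and at 0.145, 0.146 and 1.31 FPKM in *Esrra*-/-, lowest in the libraries that were lowest in *Slc40a1*. The sum of the 8 proximal small intestinal genes it belongs to did not follow this order. It was 11643, 11161 and 18613 FPKM in WT and 15206, 11909 and 18045 FPKM in *Esrra*-/-. Most of this sum was *Rbp2*, at a mean of 13200 FPKM, so it does not show the order of the other genes of the list.

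*Heph* (chrX:93650698-93769824, plus strand), the ferroxidase that works with ferroportin, had a positive log2 fold change. It was at 59.4, 51.8 and 45.8 FPKM in WT and at 60.3, 58.2 and 77.1 FPKM in *Esrra*-/-. *Esrra*-/- replicates 1 and 3 lay above all WT libraries, and *Esrra*-/- replicate 2 lay below WT replicate 1. In limma the log2 fold change was 0.31 (SE 0.17, 95% interval −0.08 to 0.71, adjusted p = 0.538 by limma).

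*Tfrc* (chr16:32609006-32632880, plus strand), which carries 4 of the hairpins shown above, was at 25.4, 23.8 and 16.9 FPKM in WT and at 18.5, 24.8 and 11.9 FPKM in *Esrra*-/-. Between genotypes the log2 fold change was −0.30 (SE 0.28, 95% interval −0.96 to 0.36, adjusted p = 0.736 by limma). The libraries with the most *Tfrc*, WT replicates 1 and 2 and *Esrra*-/- replicate 2, were also those with the highest sum of the 10 crypt markers, at 299.6, 362 and 270.2 FPKM, and *Esrra*-/- replicate 3 was the lowest in both, with a crypt sum of 119 FPKM. In bulk RNA, fewer crypt cells and less *Tfrc* RNA per cell cannot be told apart.

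Ferritin heavy chain was among the most abundant messages of the epithelium. *Fth1* (chr19:10057193-10059582, plus strand) was at 2319, 2182 and 3474 FPKM in WT and at 1806, 1822 and 3039 FPKM in *Esrra*-/-. In each genotype replicate 3 was the highest library, and the other libraries of *Esrra*-/- lay below all WT libraries. This gave a log2 fold change of −0.27 (SE 0.32, 95% interval −1.01 to 0.47, adjusted p = 0.782 by limma). Replicate 3 of each genotype also stood apart in Y-linked transcripts, whose summed FPKM was 0.0487 in WT replicate 3 and 0.222 in *Esrra*-/- replicate 3 against 27.3 to 46.7 in the other libraries. In a fit that allowed for this split the log2 fold change of *Fth1* was again −0.27 with an unadjusted limma p of 0.0348, still short of the fold set for a call.

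The ferritin light chain gene *Ftl1* (chr7:52713314-52715254, minus strand) could not be read on its own. It was at 1.39, 631 and 1045 FPKM in WT and at 1608, 772 and 1748 FPKM in *Esrra*-/-, a 1260.5-fold range in which WT replicate 1 stood alone at the bottom. *Gm10116* (chr13:74543844-74544765, plus strand), annotated as a protein-coding gene of its own, matches the *Ftl1* transcript at 917 of 921 aligned bases (99.6%), and 7 places in the genome outside *Ftl1* match at least 90% of the bases over at least 50% of the transcript. *Gm10116* was at 1794, 868 and 1271 FPKM in WT and at 3.70, 985 and 9.77 FPKM in *Esrra*-/-. The libraries fell into 3 kinds: in WT replicate 1 *Ftl1* held 0.0773% of the sum of the pair, in WT replicates 2 and 3 and *Esrra*-/- replicate 2 it held 42.1% to 45.1%, and in *Esrra*-/- replicates 1 and 3 it held 99.8% and 99.4%.

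Added together, the pair was nearly level. The sum was 1795, 1499 and 2316 FPKM in WT and 1612, 1757 and 1758 FPKM in *Esrra*-/-, with 1.55 times between the lowest and the highest library and all *Esrra*-/- values within the WT range. Its log2 fold change was −0.11 (SE 0.24, 95% interval −0.66 to 0.45, adjusted p = 0.897 by limma), an analysis added after the values were seen. Taken alone, *Ftl1* gave a log2 fold change of 3.70 (SE 2.27, adjusted p = 0.592 by limma), which fell to 0.67 without WT replicate 1, and *Gm10116* gave −5.24 (SE 1.85, adjusted p = 0.393 by limma), past the call thresholds for lower. The RNA of the pair is therefore given as 1 value, with the share of each gene uncertain. On this scale *Fth1* was 1.04 to 1.73 times the light chain pair.

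**Figure D2:**
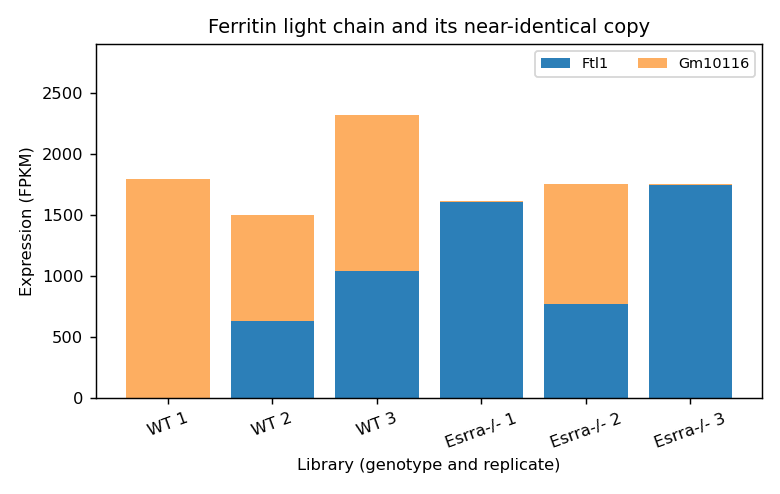
FPKM of *Ftl1* and of its near-identical copy *Gm10116*, stacked, in each of the 6 libraries. The share of *Ftl1* runs from 0.0773% in WT replicate 1 to 99.8% in *Esrra*-/- replicate 1, while the height of the whole bar runs from 1499 to 2316 FPKM.

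*Hmox1* (chr8:77617490-77624495, plus strand), which opens the heme ring, had the lowest mean of the members, though 47.9% of all genes in the table were lower still. It was at 0.616, 0.331 and 0.478 FPKM in WT and at 0.612, 0.672 and 0.175 FPKM in *Esrra*-/-. The group means were 0.475 and 0.487 FPKM, and the highest and lowest libraries were both *Esrra*-/- (two-sided exact permutation test, p = 1). It was under the filter, and fitted without it the log2 fold change was −0.08 (95% interval −1.18 to 1.02, limma adjusted p = 0.977). *Hmox2*, which encodes the constitutive heme oxygenase, ran from 20.9 to 43.9 FPKM over the libraries, with a log2 fold change of −0.29 (limma adjusted p = 0.717).

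Of the regulators, *Ireb2* (chr9:54711562-54760341, plus strand) was the steadiest member. It was at 17.3, 17.3 and 20.9 FPKM in WT and at 21.5, 17.6 and 23.7 FPKM in *Esrra*-/-, 1.36 times between the lowest and the highest library. Its log2 fold change was 0.17 (SE 0.15, 95% interval −0.19 to 0.53, adjusted p = 0.717 by limma). *Aco1*, which encodes IRP1, the other iron regulatory protein, was 3.41 to 4.96 times as abundant as *Ireb2* in every library and had a log2 fold change of −0.06 (SE 0.21, adjusted p = 0.94 by limma). *Fbxl5*, which encodes the ubiquitin ligase subunit that marks IRP2 for destruction when iron is plentiful, was at 43.8 to 49.8 FPKM in WT and at 52.3 to 63.5 FPKM in *Esrra*-/-, with no overlap, but its log2 fold change of 0.29 (limma adjusted p = 0.486) did not pass the test. *Ncoa4*, the receptor that delivers ferritin to autophagy, had a log2 fold change of 0.31 (limma adjusted p = 0.554).

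*Epas1* (chr17:87153247-87232750, plus strand) was the member with the widest scatter apart from *Ftl1*. It was at 17.8, 5.94 and 16.9 FPKM in WT and at 3.12, 22.9 and 5.97 FPKM in *Esrra*-/-, so *Esrra*-/- held the lowest and the highest libraries. Its within-group SD of 1.20 on the log2 scale was larger than that of 98.2% of the genes tested. In limma the log2 fold change was −0.68 (SE 0.73, 95% interval −2.39 to 1.04, adjusted p = 0.763 by limma). Without *Esrra*-/- replicate 2 it was −1.47 with an unadjusted limma p of 0.0272, past the call thresholds, and without *Esrra*-/- replicate 1 it was −0.05.

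The libraries high in *Epas1* were those high in globin RNA. WT replicates 1 and 3 and *Esrra*-/- replicate 2, at 16.9 FPKM or more of *Epas1*, had 28.7, 45.5 and 54.6 FPKM over the 8 erythroid markers, while the other libraries had 9.07, 14.3 and 23.0 FPKM. The globin genes *Hba-a1* and *Hbb-b1* were at means of 13.1 and 8.32 FPKM and were not called, while 1 other marker of the list was called higher. The red cell gene *Slc4a1* was at or near 0, at most 0.0118 FPKM. *Epas1* is also abundant in endothelium, whose genes *Cdh5* and *Kdr*, looked up after the values were seen, were at most 0.0264 and 0.0107 FPKM, and *Pecam1* was at 0.125 to 0.359 FPKM. The part of blood or endothelium in the *Epas1* values was not tested.

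**Figure D3:**
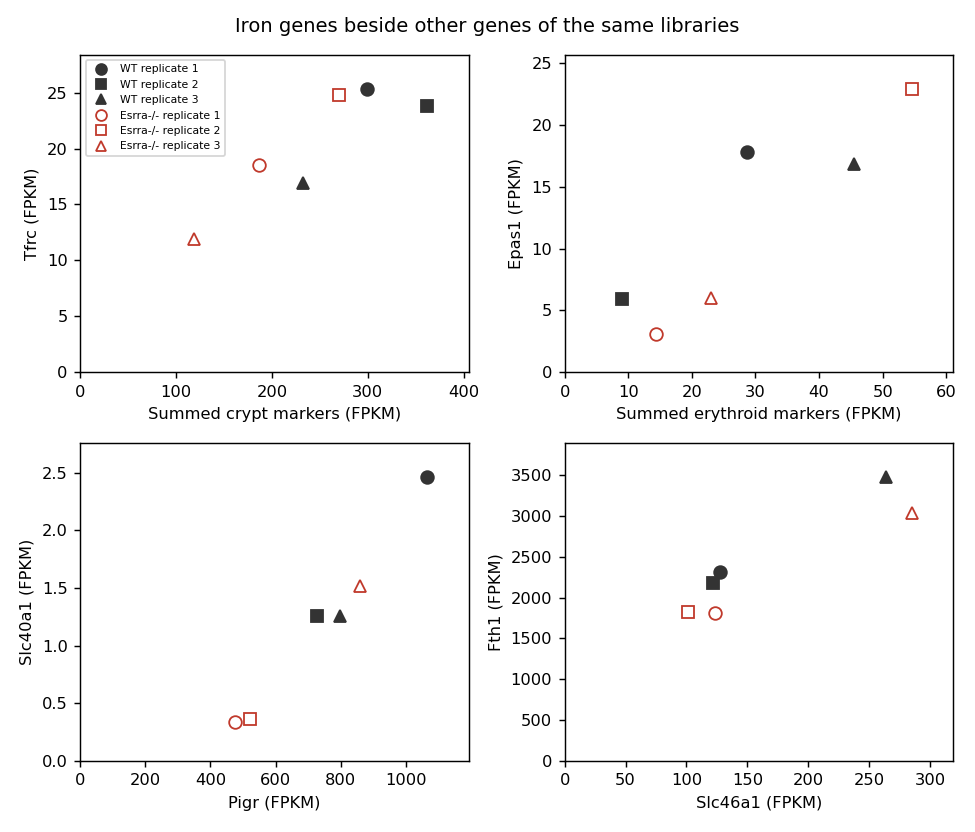
FPKM of *Tfrc*, *Epas1*, *Slc40a1* and *Fth1* in each library (vertical axes) against the summed crypt markers, the summed erythroid markers, *Pigr* and *Slc46a1* (horizontal axes), all in FPKM, with 1 point per library. *Pigr* was picked for its high correlation with *Slc40a1* over these same libraries, so the likeness in that panel follows from the choice. Points of the genotypes mix in the panels for *Tfrc* and *Epas1*, and replicate 3 of each genotype stands apart at 264 and 285 FPKM of *Slc46a1* in the *Fth1* panel.

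Around the members, 40 other genes of iron handling were listed. Of the 27 that passed the filter 1 was called lower and 1 higher (7.41% called, against 4.63% of all genes tested), 3 had an unadjusted p under 0.05 (10.8% of all genes tested did), and the median log2 fold change was 0.03. The heme and choline transporter gene *Flvcr2*, listed under its older symbol *Mfsd7c*, rose from a mean of 3.20 FPKM (SD 0.551, n = 3) to 10.0 FPKM (SD 4.10, n = 3), with 3.81, 3.06 and 2.73 FPKM against 14.6, 8.81 and 6.67 FPKM and no overlap. Its log2 fold change was 1.55 (SE 0.28, adjusted p = 0.175 by limma). *Flvcr1*, its relative, listed as *Mfsd7b*, ran from 20.4 to 58.4 FPKM with a log2 fold change of 0.25 (limma adjusted p = 0.825).

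*Cisd1* encodes mitoNEET, an iron-sulfur protein of the outer mitochondrial membrane, and fell from 44.3 ± 13.0 FPKM to 23.5 ± 4.31 FPKM (SD, n = 3 mice each). Its values were 36.7, 36.9 and 59.2 FPKM in WT and 18.7, 24.8 and 27.0 FPKM in *Esrra*-/-, with no overlap. Between genotypes the log2 fold change was −0.89 (SE 0.23, adjusted p = 0.304 by limma). *Cisd1* is a mitochondrial gene by its product and does not carry iron across the epithelium.

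Of the other genes that move iron or heme, *Slc46a1*, which encodes the proton-coupled folate transporter and was first described as a heme carrier, had a log2 fold change of −0.07 (limma adjusted p = 0.968). *Slc48a1*, a heme transporter of endosomes, had −0.21 (limma adjusted p = 0.739), and *Hfe*, the hemochromatosis gene, had 0.05 (limma adjusted p = 0.934). The 13 listed genes at a mean of 1 FPKM or less, *Steap1* with at most 1.28 FPKM being the highest of them, included *Hamp*, the gene for the liver hormone hepcidin, which was at most 0.610 FPKM and was listed at 0 in 3 libraries.

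**Figure D4:**
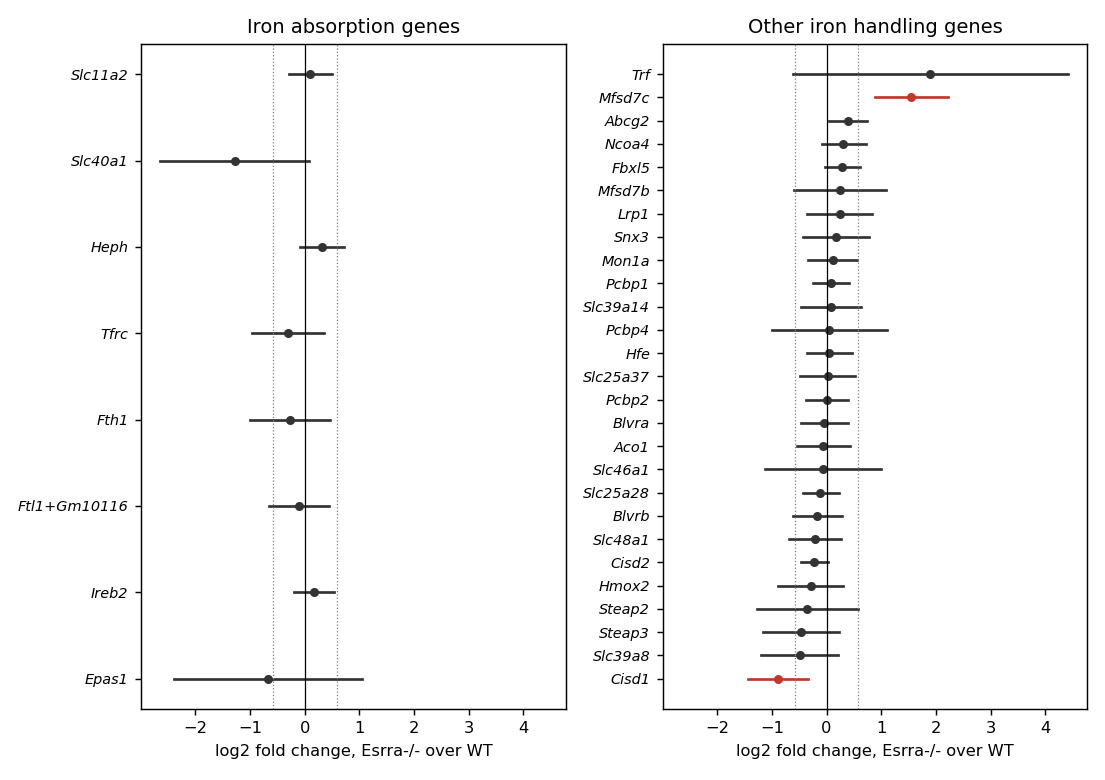
Log2 fold change, *Esrra*-/- over WT, with its 95% interval from limma, for 7 of the tested iron absorption genes and the *Ftl1* and *Gm10116* pair (left) and for the 27 other iron handling genes tested (right). Dotted lines mark a log2 fold change of 0.58 in either direction, and red marks the called genes, *Mfsd7c* and *Cisd1*.

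Genes of the hypoxia response were read in the same way, from lists that do not separate targets of HIF-2α from those of other HIF proteins. Of 31 tested genes among 35 regulators and targets, 1 was called lower and 1 higher (6.45%, against 4.63% of all genes tested), 5 had an unadjusted p under 0.05 (10.8% of all genes tested did), and the median log2 fold change was 0.04. *Car9*, a carbonic anhydrase and a widely used HIF target, fell from 31.2 ± 1.20 FPKM to 21.1 ± 4.21 FPKM (SD, n = 3), with 32.1, 29.8 and 31.7 FPKM in WT and 19.9, 25.8 and 17.6 FPKM in *Esrra*-/-. Its log2 fold change of −0.58 (SE 0.16, adjusted p = 0.326 by limma) lay at the edge of the threshold and was short of it in 4 of 6 fits, each made without a different library. *Arnt2*, a partner of HIF proteins, rose from 0.787, 0.897 and 0.967 FPKM in WT to 1.95, 1.42 and 1.87 FPKM in *Esrra*-/-. Its log2 fold change was 0.90 (limma adjusted p = 0.328), and it passed the filter only through its *Esrra*-/- values.

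The remaining hypoxia genes fixed for naming stayed short of a call. This gave a log2 fold change of 0.07 for *Hif1a*, which encodes HIF-1α, −0.06 for *Egln3*, an oxygen-sensing prolyl hydroxylase, 0.04 for *Vhl*, the ubiquitin ligase component that removes HIF-α proteins, and 0.49 for *Ankrd37*, a HIF target, with limma adjusted p of 0.914, 0.947, 0.941 and 0.736. That of *Ankrd37* ran from 0.04 without WT replicate 1 to 0.95 without WT replicate 3.

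Of other messages known to carry an iron-responsive element, *Cdc14a* and *Cdc42bpa* did not pass the test, with log2 fold changes of −0.16 and 0.38 (limma adjusted p = 0.696 and 0.548). Without *Esrra*-/- replicate 3 *Cdc42bpa* was at 0.59 with an unadjusted limma p of 0.0123, past the call thresholds. *Alas2*, the erythroid enzyme of heme synthesis, and *Pfn2* were at most 0.244 and 0.452 FPKM and were not tested.

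The genes most like *Slc40a1*, *Slc11a2* and *Cybrd1* across the 6 libraries were looked up among all genes tested, with Pearson's r of log2(FPKM + 0.1) as the measure. For *Slc40a1* they were *4930402H24Rik* (r = 0.991), *Pigr*, the receptor that carries immunoglobulin A into the lumen (r = 0.989), and *Aldh1l1* (r = 0.976). *Pigr* was at 1066, 727 and 797 FPKM in WT and at 477, 522 and 858 FPKM in *Esrra*-/-, with the same libraries at the bottom as *Slc40a1*. For *Slc11a2* they were *Ankrd58* (r = 0.978), *3110070M22Rik* (r = 0.977) and *2810432L12Rik* (r = 0.975), and for *Cybrd1* they were *Mrpl9* (r = 0.986), *Ccr9* (r = 0.986) and *Rnase4* (r = 0.983). These values describe 6 libraries that differ in genotype and cell makeup, and 38, 67 and 59 genes had an r above 0.9 with *Slc40a1*, *Slc11a2* and *Cybrd1*. The named genes are the highest of 10596 tested, and how many unrelated genes would exceed 0.9 over 6 libraries was not computed.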

How the data were processed

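The authors checked reads with FastQC (0.11.3), quantified them with Kallisto (given as version 2.1.0) against mm9 and computed FPKM with DESeq2 (given as version 2.2.1), as the methods and the submitters' processing notes state. The deposited FPKM table has 1 column for each of the 6 libraries. The annotation is not given in the sources used here. Its 22611 genes equal in number those of the GENCODE M1 protein-coding transcripts on NCBIM37 (mm9), and 22586 symbols match. The other 25 had been turned into dates. The authors' own comparison (mean count, log2 fold change, standard error, statistic and p-values) was not used. No count test was run, because the values are FPKM.

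Members, gene lists and tests were chosen with earlier results of these data known. The rule for named genes took the 10 members, *Esrra*, every called gene of the iron and hypoxia lists, a fixed set of regulators and transporters, messages with an iron-responsive element, the 3 genes most like each of *Cybrd1*, *Slc11a2* and *Slc40a1*, and the most abundant marker per list. *Eno1*, *Hmox2*, *Mfsd7b*, *Gm10116*, *Steap1*, *Trf*, *Emr1*, *Mertk*, *Pdx1*, *Slc4a1* and the endothelial genes were named after their values were seen. Some listed genes are not reported here. The listed genes *Flvcr1*, *Flvcr2* and *Tfr2* were found under their older symbols *Mfsd7b*, *Mfsd7c* and *Trfr2*.

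limma 3.58.1 in R 4.3.3 was run with lmFit and eBayes with a trend, a pseudocount of 0.1 FPKM, a minimum mean of 1 FPKM, no covariate and Benjamini-Hochberg adjustment over 10596 genes, after being tested on simulated data. Single values were compared with a two-sided exact permutation test. Copies of transcripts were found with minimap2 2.31. The labels do not say from which litters or days the mice came.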

Additional observations from a re-analysis of the deposited data

How the results depend on the processing

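Over the alternatives tried, 0 members were called higher and 0 had an adjusted p under 0.05. The count of members called lower, 0, ran from 0 to 1 when 1 library was left out (*Epas1* without *Esrra*-/- replicate 2, *Slc40a1* without *Esrra*-/- replicate 3), as did the count with an unadjusted p under 0.05. That count was 1 (*Fth1*) with the replicate block and 1 with a covariate for libraries lacking Y-linked RNA. Same-numbered libraries had correlations of deviations of 0.012, 0.263 and 0.376, with replicate 1 of WT nearer to *Esrra*-/- replicate 2 (0.182). Deviations of 3 mice from their own mean depend on each other, so these values cannot decide whether the numbers pair the mice. The block gave no member a call.

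With 1 library left out, other iron handling genes called lower ran from 1 to 3 (3 without WT replicate 3, 2 without *Esrra*-/- replicate 2) and those called higher from 1 to 2 (2 without *Esrra*-/- replicate 3). Hypoxia genes called lower ran from 0 to 2 (0 without WT replicate 1, WT replicate 3 or *Esrra*-/- replicate 1, 2 without WT replicate 2, with *Eno1* beside *Car9*, and 1 without *Esrra*-/- replicate 3, *Eno1* in place of *Car9*) and those called higher from 1 to 3 (3 without WT replicate 1, 2 without WT replicate 3). With a pseudocount of 1 the hypoxia genes called were 0 lower and 0 higher, with median-ratio scaling 2 were lower (*Car9* and *Eno1*), and with FPKM above 1 in all 6 libraries, a filter that *Arnt2* and *Slc40a1* do not pass, 0 were higher. Apart from these the cause was not tested.

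The sign of *Ftl1* turned, to −0.11, when it was summed with *Gm10116*. Leaving out 1 library turned the sign of genes near 0, whose log2 fold changes ran from −0.01 to 0.21 (*Slc11a2*), −0.17 to 0.12 (*Aco1*), −0.52 to 0.29 (*Slc46a1*), −0.01 to 0.12 (*Hfe*), −0.10 to 0.21 (*Hif1a*), −0.28 to 0.17 (*Egln3*) and −0.03 to 0.13 (*Vhl*). *Tfrc* ran from −0.54 to −0.02, *Heph* from 0.19 to 0.41, *Fth1* from −0.52 to −0.06 and *Mfsd7c* from 1.25 to 1.81. Of 363 comparisons of 26 genes with an alternative, 340 kept direction and call. The depth of each library is not in the FPKM values, so its limit for *Cybrd1* and *Hmox1* was not computed.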

Other observations

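*Slc46a1* differed between libraries of the same genotype far more than between genotypes. It was at 127, 122 and 264 FPKM in WT and at 123, 101 and 285 FPKM in *Esrra*-/-, so replicate 3 of each genotype stood above all others. The same libraries were the highest of their genotype in *Fth1* and in the sum of villus enterocyte markers (65962 and 69969 FPKM). They were also the highest in the sum of proximal small intestinal genes (18613 and 18045 FPKM), most of it *Rbp2*. Both were the libraries with Y-linked transcripts at or near 0. Replicate number, sex of the mice and position along the gut cannot be told apart here.

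*Trf*, which encodes transferrin, was at 27.6 FPKM in *Esrra*-/- replicate 1 at 1.41 and 1.30 FPKM in *Esrra*-/- replicates 2 and 3 and at 0.723 to 1.23 FPKM in WT, so the genotypes did not overlap. Its log2 fold change, 1.90 (SE 1.07, adjusted p = 0.564 by limma), was not past the call thresholds, and it passed them for higher without *Esrra*-/- replicate 3. At a WT mean of 0.961 FPKM it passed the filter on low values only through *Esrra*-/-, chiefly through replicate 1.

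In WT replicate 1, *Ftl1* was 1 of 3 genes at less than 1/20 of the lowest other library where all others exceeded 20 FPKM. The others were *Gm6139*, at 0.553 FPKM against 158 to 285 FPKM, and *Rps2-ps6*. The other libraries had 0 or 1 such gene each.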
